A study of Mus musculus with 19 samples.

Results

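Dppa1, Dppa2, Dppa4, Dppa5a, Pramel6 and Pramel7 were followed in single mouse blastocysts, the embryo of inner cell mass, trophectoderm and cavity that precedes implantation. The genes were chosen by name, and all 6 were listed among the 14173 genes measured. Polyadenylated RNA of each embryo had its own library, in 9 Padi6-mutant and 10 Control embryos, and each embryo counts as 1 replicate. Padi6 encodes a protein of the egg cytoplasm. Per the series' text the mutant embryos came from oocytes with the P620A form of Padi6, so the label describes the mother's egg, and the embryos studied had passed a block at the 2-cell stage. The labels do not give the father's genotype, the strain, the litter or the collection day. The p-values treat embryos as independent; litter mates within a group would make them smaller than they should be.

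Dppa stands for developmental pluripotency associated, a name given to genes found active in embryos and pluripotent cells rather than to 1 protein family. In mouse embryonic stem cells DPPA2 and DPPA4 act as a pair on chromatin: they activate genes of the 2-cell stage and keep a set of promoters free of DNA methylation. DPPA5A is a small RNA-binding protein of the KH-domain type. PRAMEL6 and PRAMEL7 belong to the leucine-rich PRAME family, whose genes are numerous in the mouse. In mouse embryonic stem cells both favour self-renewal along the LIF and STAT3 route, and PRAMEL7 brings UHRF1, the partner of the maintenance methyltransferase DNMT1, to a CUL2 ubiquitin ligase.

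The 6 genes form 2 pairs of neighbours and 2 single genes. Dppa4 and Dppa2 lie next to each other on chromosome 16, on the same strand. Pramel7 and Pramel6 lie next to each other on chromosome 2, on opposite strands. Dppa5a lies on chromosome 9 beside Ooep, and Dppa1 on chromosome 11. No other annotated gene overlaps any of them in GENCODE release M21. The transcripts differ in length: the principal transcript has 551 nt for Dppa1 and 619 nt for Dppa5a, against 1479 nt for Dppa4, 1540 nt for Pramel6, 1861 nt for Pramel7 and 1948 nt for Dppa2. The longest annotated transcript of Dppa1 has 1575 nt.

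RefSeq promoters (build GRCm38.p6) were found for 3 of the 6 genes, and the 250 bases before the start are shown for them because DNA methylation acts on the CG dinucleotides, which are in capitals. The labels name the later build GRCm39, so these positions hold for GRCm38.p6 alone. Pramel7 lies on the minus strand at chr2:87492419-87492668, Pramel6 on the plus strand at chr2:87506315-87506564 and Dppa1 on the minus strand at chr11:46629275-46629524, and each sequence reads 5′ to 3′ towards its RefSeq start. The bases just after that start were found in a GENCODE M21 transcript for Pramel7 and Pramel6 but not for Dppa1. The Dppa1 window may therefore not lie directly before the Dppa1 transcripts used here.
Pramel7: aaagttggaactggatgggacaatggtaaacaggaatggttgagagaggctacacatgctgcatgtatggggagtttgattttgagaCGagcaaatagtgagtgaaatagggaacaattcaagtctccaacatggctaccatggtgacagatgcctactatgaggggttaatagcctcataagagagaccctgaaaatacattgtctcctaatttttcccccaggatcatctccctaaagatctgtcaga
Pramel6: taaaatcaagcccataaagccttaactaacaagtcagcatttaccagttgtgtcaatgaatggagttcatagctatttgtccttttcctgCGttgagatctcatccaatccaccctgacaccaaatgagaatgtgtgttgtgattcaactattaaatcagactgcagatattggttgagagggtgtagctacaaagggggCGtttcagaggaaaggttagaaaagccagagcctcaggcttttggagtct
Dppa1: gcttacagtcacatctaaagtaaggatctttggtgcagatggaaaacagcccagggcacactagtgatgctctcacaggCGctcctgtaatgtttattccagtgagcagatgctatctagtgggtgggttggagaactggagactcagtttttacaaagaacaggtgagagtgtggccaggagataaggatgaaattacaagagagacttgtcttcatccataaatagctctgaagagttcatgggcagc
The Pramel7 stretch held 1 CG, that of Pramel6 2 and that of Dppa1 1, against a median of 6 over the 32851 promoters of the table. As few or fewer were found in 18.8% of promoters for 1 CG and in 29.0% for 2. The octamer ATGCAAAT (in 1.6% of all promoters), the STAT-type motif TTCNNNGAA (7.02%) and the TATA-type motif TATAAA (12.37%), searched on both strands, had no match in these 3 windows.

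The values are log2(scaled count + 1), with each library scaled by the authors to the same upper quartile. Padi6 itself was at 6.49 ± 2.16 in Padi6-mutant embryos and 6.53 ± 1.5 in Control embryos (SD, n = 9 and 10; limma adjusted p = 0.976). Padi6-mutant libraries had 113 to 596 genes at 0, against 30 to 247 in Control libraries (exact permutation p = 0.00890). Libraries also differed in a trend with transcript length. Within a library, Spearman's rho between a gene's transcript length and its departure from its own mean, taken across genes, was -0.245 ± 0.115 in Padi6-mutant and 0.173 ± 0.185 in Control libraries (SD, n = 9 and 10; exact permutation p = 1.30e-04). Short transcripts were therefore relatively high in Padi6-mutant libraries, and in Control 5 (-0.12) and Control 9 (-0.11) as well. The marker lists cover the inner cell mass, the trophectoderm and the primitive endoderm. Of 10 markers of cumulus and granulosa cells, 8 were not listed, including Foxl2, Cyp19a1 and Fshr, and neither Amhr2 nor Star was called.

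Dppa5a and Dppa1 rose in Padi6-mutant embryos and the other 4 genes did not pass. Thus 2 of 6 members were called higher, where 14.6% of all genes were, and 0 of 6 lower, where 12.0% were; 26.6% of all genes were called in either direction (limma adjusted p under 0.05). At an unadjusted limma p under 0.05 the counts were 3 higher and 0 lower, the third being Pramel6, and the exact permutation test over embryos gave the same counts. Dppa1 (551 nt) and Dppa5a (619 nt) have short principal transcripts. Of 525 genes with principal transcripts of 500 to 700 nt, 52.2% were called higher, with a median difference of 1.24. The upper decile of their differences was 2.56, above those of Dppa1 (2.01) and Dppa5a (2.10). The share of 14.6% is therefore a low background for short transcripts. With its form of 1575 nt Dppa1 would lie outside that range of lengths. The plot of the 6 genes by embryo shows how differently the groups overlap from gene to gene.

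**Figure D1:**
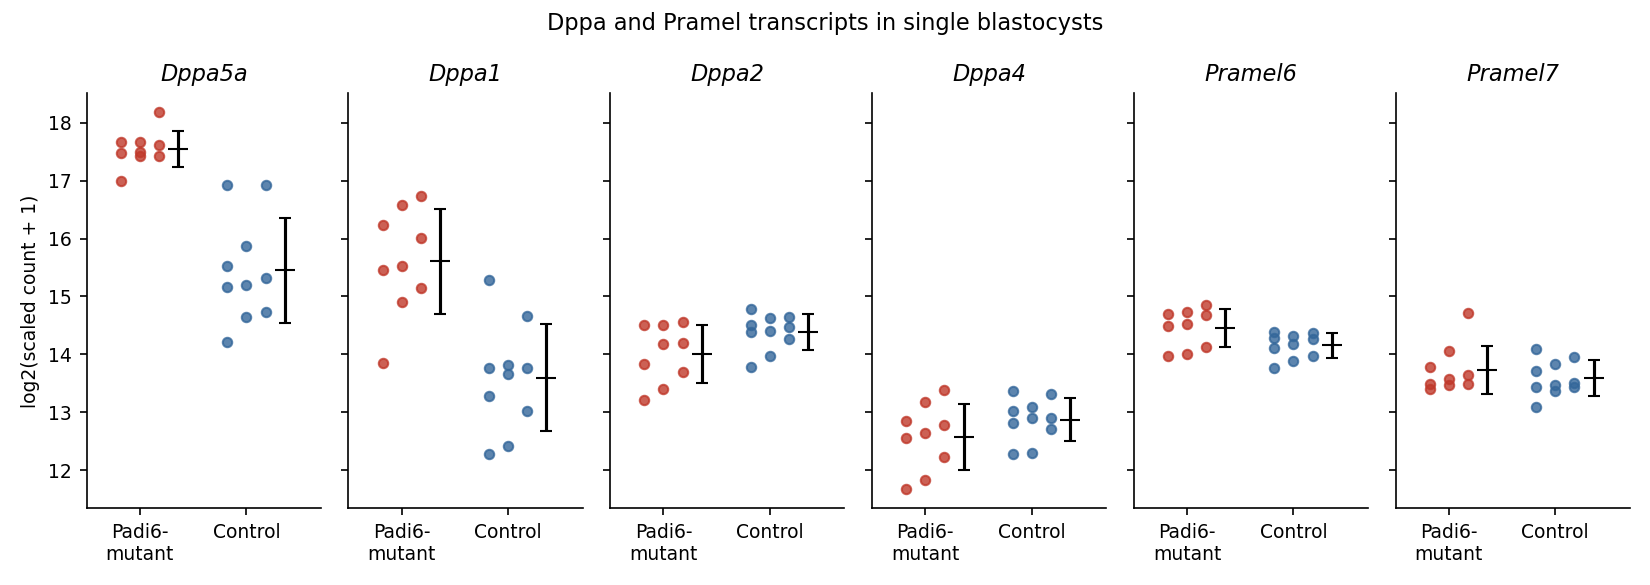
Level of each gene, log2(scaled count + 1) on the y axis, in 9 Padi6-mutant (red) and 10 Control (blue) blastocysts, 1 point per embryo, with the mean and SD beside each group. For Dppa5a every Padi6-mutant embryo (17.00 to 18.18) lies above every Control embryo (14.22 to 16.93), whereas the groups overlap for the other 5 genes.

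Dppa5a was among the most abundant transcripts of these embryos: 0.14% of genes had a higher mean level. It lay between 17.00 and 18.18 (median 17.49) in Padi6-mutant embryos, against 14.22 to 16.93 (median 15.25) in Control embryos. All 9 Padi6-mutant embryos were above all 10 Control embryos, a separation upwards that 2.67% of genes showed. That share covers genes of all lengths, and none was computed for short transcripts alone. The difference was 2.10 (SE 0.30, 95% interval 1.48 to 2.71, 4.27-fold; limma adjusted p = 1.67e-05). Its exact permutation p, 2.17e-05, is the smallest that 92378 splits allow. Control embryos spread more widely around their median (mean absolute deviation 0.20 in Padi6-mutant and 0.66 in Control embryos), a difference that did not pass after adjustment over the 6 genes (exact permutation p = 0.0449, adjusted 0.269).

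The length trend moved with the level of Dppa5a. Within Control embryos, Dppa5a followed the length rho of the library closely (Pearson's r = -0.93, permutation p = 2.80e-04, adjusted 0.0134 over 48 relations; Spearman's rho = -0.85, permutation p = 0.00294, adjusted 0.0664). Without the 2 libraries farthest from the median length rho, r was -0.77. Within Padi6-mutant embryos r was -0.46 (exact permutation p = 0.213). Among 525 genes with principal transcripts of 500 to 700 nt, the median difference was 1.24 and 52.2% were called higher. With each library's trend on length and GC content removed, Dppa5a was at 16.77 ± 0.22 in Padi6-mutant and 16.02 ± 0.37 in Control embryos (SD, n = 9 and 10). The difference was then 0.75 (limma adjusted p = 0.00135), 8 of 9 Padi6-mutant embryos were above all Control embryos, and 10.6% of genes were called higher. With the length rho as a covariate, the difference was 0.55 and did not pass (limma adjusted p = 0.402), and 139 genes in all did in that fit. The length rho was -0.42 to -0.09 in Padi6-mutant and -0.12 to 0.40 in Control libraries. Group and length rho thus largely go together, and that fit can hardly tell them apart.

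Dppa1 lay between 13.86 and 16.74 (median 15.52) in Padi6-mutant embryos and between 12.28 and 15.28 (median 13.72) in Control embryos. All 9 Padi6-mutant embryos were above the Control median, and 6 of 9 were above every Control embryo. The difference was 2.01 (SE 0.37, 95% interval 1.23 to 2.78, 4.02-fold; limma adjusted p = 3.59e-04). Its size depended on which transcript stands for the gene. After length and GC detrending it was 0.46 with the form of 551 nt (adjusted p = 0.369) and 1.55 when each gene's longest transcript was used, 1575 nt for Dppa1 (adjusted p = 0.00281; 11.1% of genes called higher). The deposited table does not say which form was counted.

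Libraries with a like length trend can be set side by side. Control 5 and Control 9 had a length rho of -0.12 and -0.11, and Padi6-mutant 7, 9 and 10 had -0.13, -0.09 and -0.12. Dppa5a was at 17.43, 17.47 and 17.00 in those 3 Padi6-mutant embryos, against 16.92 and 16.93 in Control 5 and 9. Dppa1 was at 16.01, 16.58 and 16.74 in the same Padi6-mutant embryos, against 14.67 and 15.28 in Control 5 and 9. The Padi6-mutant values were higher for each gene, by a narrow margin for Dppa5a in Padi6-mutant 10. These embryos were picked by their length trend and no test was made. The picking was not neutral for either gene. These 3 Padi6-mutant embryos are among the highest in Dppa1 of all embryos. Control 5 and 9 are the highest Control embryos in both genes, and Padi6-mutant 10 is the lowest of its group in Dppa5a. Dppa1 rose with the length rho in Padi6-mutant embryos (r = 0.68, adjusted exact permutation p = 0.142). It fell with the length rho in Control embryos (r = -0.76, adjusted permutation p = 0.0680).

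**Figure D2:**
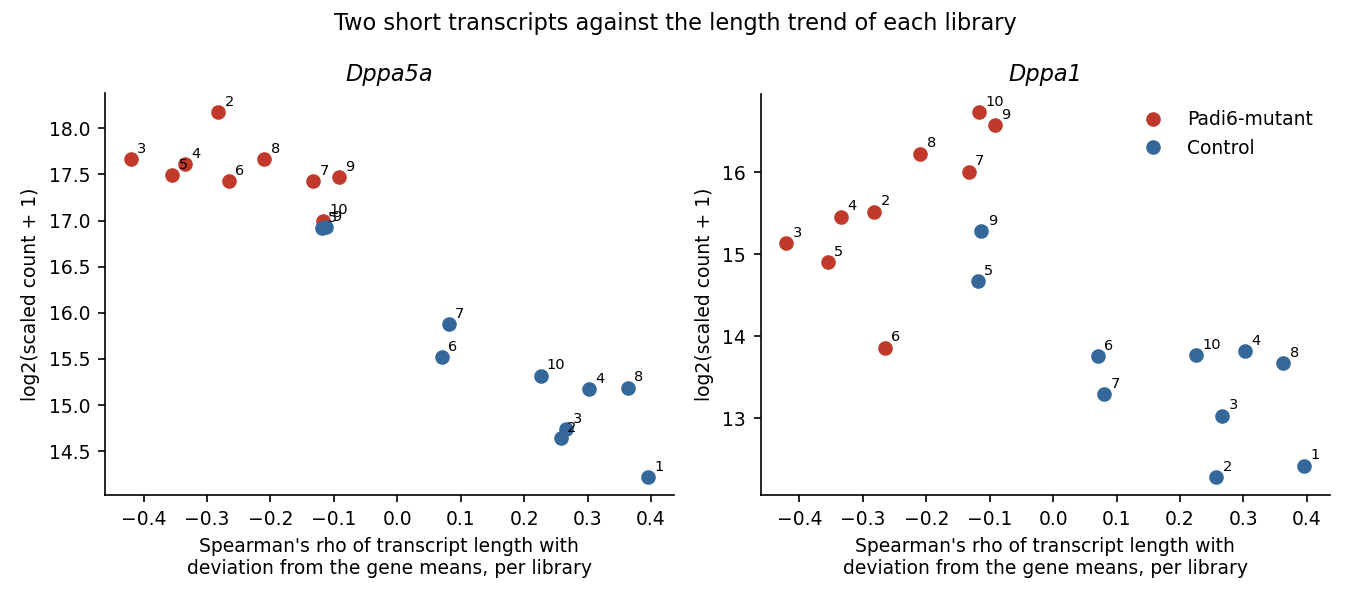
Level of Dppa5a (left) and Dppa1 (right), log2(scaled count + 1), against the length rho of the same library, for 9 Padi6-mutant (red) and 10 Control (blue) embryos numbered as in the labels. Dppa5a falls as the rho rises across Control embryos (r = -0.93), and Control 5 and 9 lie close to Padi6-mutant 10.

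Dppa2 and Dppa4, the chromatin pair, lay lower in Padi6-mutant embryos without passing the test. Dppa2 was between 13.22 and 14.56 (median 14.18) in Padi6-mutant and between 13.79 and 14.78 (median 14.44) in Control embryos. The difference was -0.38 (SE 0.19, 95% interval -0.76 to 0.01; limma adjusted p = 0.141). Dppa4 was between 11.67 and 13.38 (median 12.64) in Padi6-mutant and between 12.28 and 13.36 (median 12.90) in Control embryos. The difference was -0.30 (SE 0.21, 95% interval -0.74 to 0.13; adjusted p = 0.301). For each gene 3 of 9 Padi6-mutant embryos were below every Control embryo, and the rest lay within or, in 1 embryo for Dppa4, above the Control range.

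Once the length and GC trend was removed, both genes passed. Dppa2 was then at 13.89 ± 0.46 in Padi6-mutant and 14.36 ± 0.27 in Control embryos (SD, n = 9 and 10), a difference of -0.47 (limma adjusted p = 0.0464). Dppa4 was at 12.38 ± 0.49 in Padi6-mutant and 12.88 ± 0.24 in Control embryos, a difference of -0.50 (adjusted p = 0.0372). In that fit 10.2% of genes were called lower. With the longest transcripts the differences were -0.49 for Dppa2 (adjusted p = 0.0340) and -0.67 for Dppa4 (adjusted p = 0.00421), with 10.9% of genes called lower. Under quantile normalization Dppa2 passed as well (-0.66, adjusted p = 0.00498) and Dppa4 did not (-0.40, adjusted p = 0.140). Among 1951 genes with transcripts of 1400 to 2000 nt, the lengths of these genes, 8.05% were called lower in the deposited values and the median difference was -0.09. Without Padi6-mutant 6, 8, 9 and 10, the 4 libraries with over 400 genes at 0, the deposited values differed by -0.23 for Dppa2 and -0.15 for Dppa4.

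Pramel6 was between 13.97 and 14.86 (median 14.52) in Padi6-mutant and between 13.77 and 14.39 (median 14.22) in Control embryos. Of the 9 Padi6-mutant embryos 6 were above every Control embryo, while 7, 8 and 9 were below the Control median. The difference was 0.30 (SE 0.14, 95% interval 0.00 to 0.60; limma adjusted p = 0.129). After length and GC detrending it was 0.07 (adjusted p = 0.738), and under quantile normalization 0.02. Pramel7 was between 13.41 and 14.71 (median 13.57) in Padi6-mutant and between 13.10 and 14.10 (median 13.48) in Control embryos. The difference of 0.15 did not pass (SE 0.17, 95% interval -0.21 to 0.50; adjusted p = 0.559), and its sign turned under 4 alternatives, so no direction is read from it. Padi6-mutant 10 held the highest Pramel7 value of all 19 embryos. Pramel7 rose with the number of genes at 0 in both groups, without passing. Its r was 0.75 in Padi6-mutant embryos (adjusted exact permutation p = 0.0623) and 0.79 in Control embryos (adjusted permutation p = 0.0616).

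**Figure D3:**
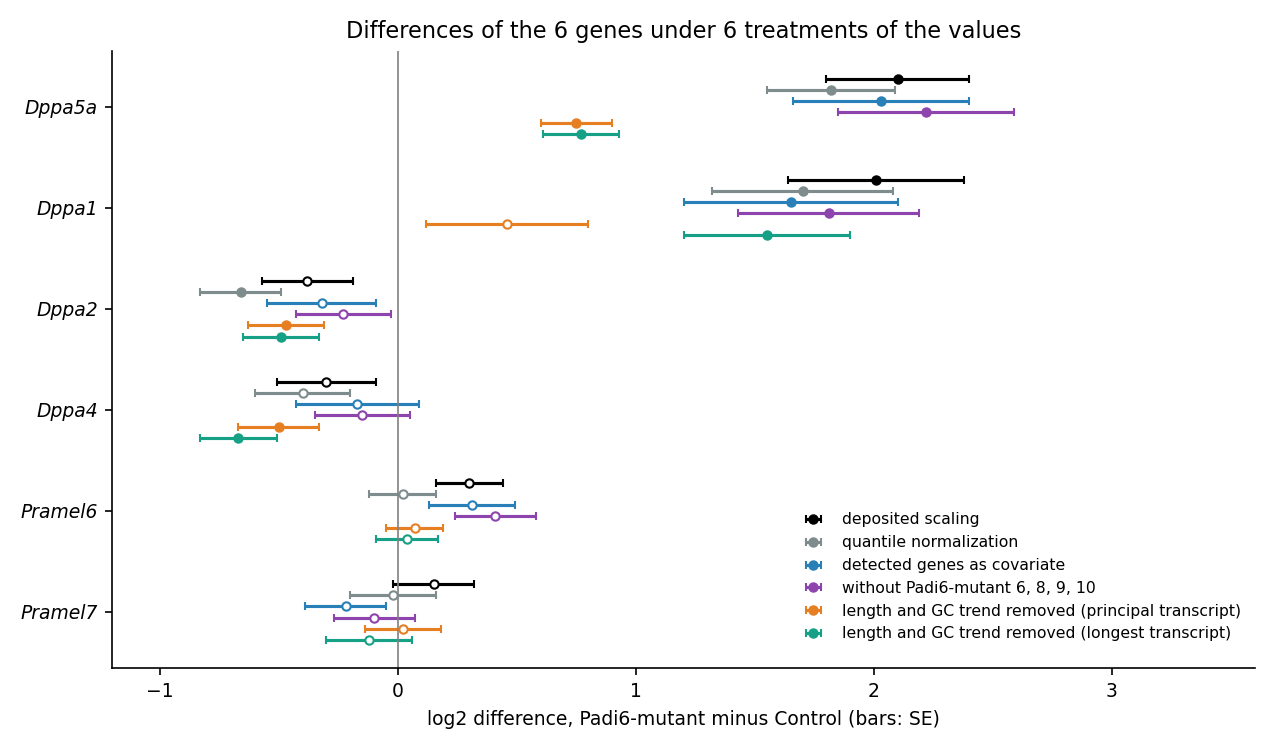
Difference of each gene between Padi6-mutant and Control embryos on the log2 scale (x axis, bars are the SE) under 6 treatments of the same values, filled where the limma adjusted p is under 0.05 and open where it is not. Dppa5a stays above 0 and filled in all 6, Dppa1 shrinks to 0.46 when its short transcript is used for the length trend, and Dppa2 and Dppa4 stay below 0 in all 6. The fit with the length rho as a covariate is not drawn. In it Dppa5a (0.55, limma adjusted p = 0.402) and Dppa1 (1.41, limma adjusted p = 0.281) did not pass.

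A ratio of 2 genes within an embryo does not depend on how its library was scaled. Of the 15 ratios between members, 10 differed between Padi6-mutant and Control embryos (exact permutation test, adjusted over the 15). All of these but Dppa2 over Pramel6 and Dppa4 over Pramel6 involve Dppa5a or Dppa1, the genes called alone. The 15 ratios come from 6 genes and are not independent. No share of passing ratios was computed for pairs of other genes. Ratios of genes of like length are given first, although genes of like length need not follow the length rho of the library alike. In Control embryos r with it was -0.37 for Dppa2, -0.70 for Dppa4 and 0.07 for Pramel6. In Padi6-mutant embryos r was -0.84, -0.83 and -0.77 for the same genes. Dppa2 over Pramel6 was -0.45 ± 0.26 in Padi6-mutant and 0.23 ± 0.27 in Control embryos on the log2 scale (SD, n = 9 and 10), a difference of -0.68 (exact permutation p = 1.52e-04, adjusted 7.14e-04). It was -0.54 after length and GC detrending (adjusted 0.0199) and -0.64 without Padi6-mutant 6, 8, 9 and 10 (adjusted 0.00500). Dppa4 over Pramel6 was -1.89 ± 0.44 in Padi6-mutant and -1.28 ± 0.49 in Control embryos (difference -0.60, adjusted exact permutation p = 0.0192). The ratios to Pramel7, also of like length, did not pass: Dppa2 over Pramel7 differed by -0.52 (adjusted exact permutation p = 0.113) and Dppa4 over Pramel7 by -0.45 (adjusted 0.251). Pramel6 thus stood higher relative to Dppa2 and Dppa4 in Padi6-mutant embryos, although none of these 3 genes passed alone, and no such difference was called for Pramel7.

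Neither the ratio of the chromatin pair nor that of the Pramel neighbours passed. Dppa2 over Dppa4 was 1.44 ± 0.29 in Padi6-mutant and 1.51 ± 0.38 in Control embryos (difference -0.07, adjusted exact permutation p = 0.702). Pramel6 over Pramel7 was 0.72 ± 0.58 in Padi6-mutant and 0.56 ± 0.36 in Control embryos (difference 0.16, adjusted 0.555). Without Padi6-mutant 6, 8, 9 and 10 the ratio of the neighbours differed by 0.51 (adjusted 0.0360). Dppa1 over Dppa5a, the short transcripts, was -1.94 ± 1.03 in Padi6-mutant and -1.85 ± 0.41 in Control embryos (difference -0.09, adjusted 0.806).

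Ratios of the short to the longer transcripts moved most. Dppa4 over Dppa5a was -4.98 ± 0.55 in Padi6-mutant and -2.58 ± 0.80 in Control embryos, with no overlap (difference -2.40, exact permutation p = 2.17e-05, adjusted 1.62e-04). The same ratio differed by -1.25 after length and GC detrending (adjusted 0.00130). Dppa5a over Pramel6 was 3.09 ± 0.39 in Padi6-mutant and 1.30 ± 0.92 in Control embryos (difference 1.80, adjusted 7.14e-04), and 0.68 apart after detrending (adjusted 0.0262). The 4 ratios of Dppa1 to Dppa2, Dppa4, Pramel6 and Pramel7 differed by 1.71 to 2.38, and none of them passed after detrending with the form of 551 nt (0.39 to 0.96).

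**Figure D4:**
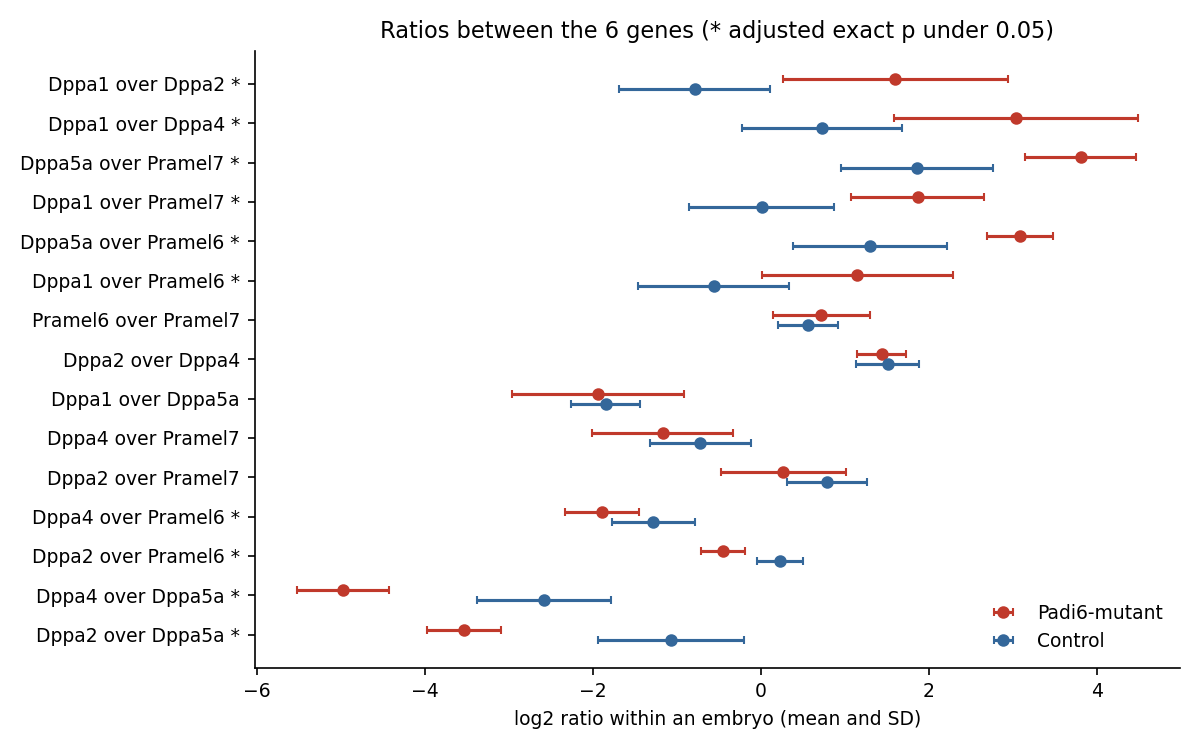
Mean log2 ratio of each pair of genes within an embryo (x axis, bars are the SD) in 9 Padi6-mutant (red) and 10 Control (blue) embryos, sorted by the difference between the groups. A star marks the 10 ratios with an adjusted exact p under 0.05; Dppa2 over Dppa5a and Dppa4 over Dppa5a show no overlap between embryos of the groups.

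Levels of different genes were compared per kb of transcript. On the log2 scale of scaled counts per kb of the principal transcript, Dppa5a was highest, at 18.24 ± 0.31 in Padi6-mutant and 16.14 ± 0.91 in Control embryos (SD, n = 9 and 10). It exceeded the next gene in 9 of 9 Padi6-mutant and 10 of 10 Control embryos. Dppa1 followed at 16.47 ± 0.91 in Padi6-mutant and 14.46 ± 0.92 in Control embryos, but with its form of 1575 nt it stood at 14.95 in Padi6-mutant and 12.94 in Control embryos, and in Control it did not differ beyond its spread from its neighbours Dppa2 (gap 0.15 ± 0.90) and Pramel7 (gap 0.25 ± 0.86), each with its longest transcript. In Padi6-mutant embryos Pramel6 was at 13.83, Dppa2 at 13.05, Pramel7 at 12.84 and Dppa4 at 12.00. In Control embryos Pramel6 was at 13.53, Dppa2 at 13.42, Pramel7 at 12.69 and Dppa4 at 12.31. Pramel6 exceeded Dppa2 in 9 of 9 Padi6-mutant embryos (gap 0.78 ± 0.26) and in 7 of 10 Control embryos (gap 0.11 ± 0.27), so in Control these neighbours did not differ beyond their spread. Dppa2 and Pramel7 did not differ beyond their spread in Padi6-mutant embryos (gap 0.21 ± 0.74).

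Within the Padi6-mutant group 1 pair of genes went in opposite directions and 2 pairs went together. Of 30 relations (15 pairs in each group), 4 passed by Pearson's r after adjustment and 1 by Spearman's rho. In Padi6-mutant embryos Dppa4 was lower where Dppa1 was higher (r = -0.90, exact permutation p = 7.58e-04, adjusted 0.0114; rho = -0.92, exact permutation p = 0.00131, adjusted 0.0394; r = -0.83 without the 2 farthest embryos). In Control embryos the same pair had r = 0.11 (permutation p = 0.767; rho = 0.12); the difference between the groups was not tested. Dppa2 and Dppa4 went together in Padi6-mutant embryos (r = 0.86, exact permutation p = 0.00361, adjusted 0.0271; rho = 0.82, exact permutation p = 0.0108, adjusted 0.104; r = 0.78 without the 2 farthest). So did Dppa2 and Pramel6 (r = 0.88, exact permutation p = 0.00296, adjusted 0.0271; rho = 0.75, exact permutation p = 0.0255, adjusted 0.153; r = 0.67 without the 2 farthest). In Control embryos Dppa1 and Dppa5a went together (r = 0.90, permutation p = 5.40e-04, adjusted 0.0114; rho = 0.78, permutation p = 0.0103, adjusted 0.104; r = 0.86 without the 2 farthest). For Dppa2 with Dppa4, r in Control embryos was 0.38 (-0.33 without the 2 farthest), and for Dppa2 with Pramel6 it was 0.52. For Dppa1 with Dppa5a, r in Padi6-mutant embryos was -0.24. These values did not pass (adjusted permutation p of 0.381 to 0.689), and the groups were not tested against each other. The genes of these pairs also moved with the length rho of the library. In Padi6-mutant embryos r with it was -0.84 for Dppa2, -0.83 for Dppa4, -0.77 for Pramel6 and 0.68 for Dppa1. None of these passed (adjusted exact permutation p of 0.0616 to 0.142 over 48 relations). In Control embryos r was -0.76 for Dppa1 and -0.93 for Dppa5a. The part of the length trend in these pairs was not tested.

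Padi6-mutant 7, 8, 9 and 10 were high in Dppa1 and low in Dppa2. Their Dppa1 values of 16.01, 16.23, 16.58 and 16.74 were the highest of all embryos, and their Dppa2 values of 13.40, 13.83, 13.22 and 13.70 were the lowest in the mutant group. Padi6-mutant 6 had the lowest Dppa1 (13.86) and the highest Dppa4 (13.38) of its group. After length and GC detrending, Dppa1 was still 15.27 to 16.34 in Padi6-mutant 7 to 10, above the highest Control value of 14.76, while Padi6-mutant 2 to 5 lay at 14.10 to 14.47 and Padi6-mutant 6 at 12.51. These embryos are described because of their values, and no test was made between them.

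**Figure D5:**
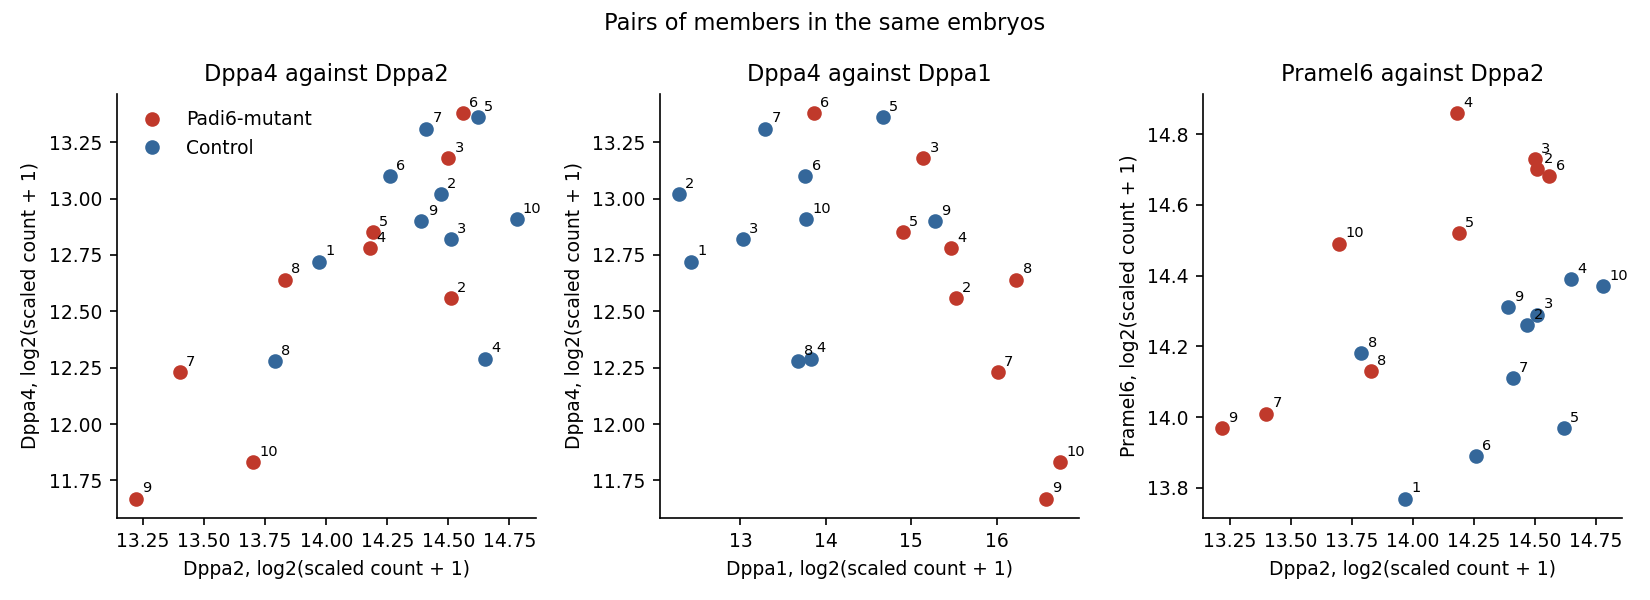
Pairs of genes in the same embryos, log2(scaled count + 1) on each axis, for 9 Padi6-mutant (red) and 10 Control (blue) embryos numbered as in the labels. Padi6-mutant 7 to 10 lie at high Dppa1 and at the low end of Dppa2 in their group, while Padi6-mutant 8 lies at the group's median of Dppa4 (12.64). Padi6-mutant 2 to 6 lie above Control embryos of like Dppa2 level in Pramel6. Padi6-mutant 8 lies slightly below Control 8 in Pramel6, and Padi6-mutant 7, 9 and 10 lie below every Control embryo in Dppa2.

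The members were set against the mean level of inner cell mass and of trophectoderm markers; of these relations, that of Dppa1 with the trophectoderm mean in Padi6-mutant embryos was the 1 that passed by Pearson's r, and 0 passed by Spearman's rho. The mean of 17 trophectoderm markers was 11.21 to 13.47 in Padi6-mutant and 11.77 to 12.91 in Control embryos, and within the Padi6-mutant group Dppa1 followed it (r = 0.89, exact permutation p = 0.00147, adjusted 0.0353 over 48 relations; rho = 0.82, exact permutation p = 0.0108, adjusted 0.0664; r = 0.63 without the 2 farthest). In Control embryos r was -0.55 (permutation p = 0.0997; rho = -0.62). The mean of 18 inner cell mass markers was 8.43 to 11.66 in Padi6-mutant and 11.16 to 11.90 in Control embryos. Pramel7 fell as this mean rose, without passing. Its r was -0.92 in Padi6-mutant embryos (adjusted exact permutation p = 0.0684, -0.88 without the 2 farthest). It was -0.64 in Control embryos (adjusted permutation p = 0.152). Padi6-mutant 10 had the lowest inner cell mass mean (8.43), the highest trophectoderm mean (13.47), and the highest Dppa1 and Pramel7. In whole embryos fewer cells of a type and less RNA per cell cannot be told apart, and the part of lineage composition in the results was not tested.

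Over all genes 12.0% were called lower and 14.6% higher, with a median difference of -0.10. Counted by list, 7 of 18 inner cell mass markers were lower and 1 higher (median difference -0.82). Those lower included Pou5f1, a core pluripotency factor (-1.26, limma adjusted p = 0.00158), and Sall4 (-0.45). Tfcp2l1 and Tbx3, factors of the naive state, were lower as well (-0.79 and -0.74). The 10 not called included Nanog (0.01), Klf4 (-0.02) and Zfp42 (-0.04), which hardly differed. Esrrb (-1.45) and Sox2 (-0.93) were not called either. The 1 that rose was Dppa3, a guard of methylation in the egg and zygote (1.12, adjusted p = 0.0243). Without Padi6-mutant 6, 8, 9 and 10 the count was 4 lower and 1 higher, and with detected genes per library as covariate 2 and 0, and after length and GC detrending 4 and 0. Of 17 trophectoderm markers 3 rose (Tspan8, Id2 and Plac1) and Krt7 fell, with a median of -0.05, a share higher that is near the 14.6% of all genes. After length and GC detrending 0 rose and 1 fell, and with detected genes per library as covariate 1 rose and 0 fell. Of 15 primitive endoderm markers 7 fell and 0 rose, with a median of -1.13, among them the laminin chains Lamc1 and Lamb1 (-1.46); 4 fell without Padi6-mutant 6, 8, 9 and 10 or after length and GC detrending, and 1 fell with detected genes per library as covariate.

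In the wider Pramel family 1 of 12 other genes fell and 0 rose, with a median of -0.30, a share lower that is near the 12.0% of all genes (0 fell with detected genes per library as covariate). It was Pramel1, a low gene at 5.13 ± 2.67 in Padi6-mutant and 7.78 ± 0.76 in Control embryos (difference -2.65, SE 0.80, limma adjusted p = 0.0179). Pramel5 and Pramel4, the most abundant of the 12, differed by -0.16 (adjusted p = 0.631) and -0.05 (adjusted p = 0.905).

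Among the KH-domain relatives of Dppa5a, Ooep, its neighbour on chromosome 9 and a protein of the subcortical maternal complex, rose by 1.93 (SE 0.34, limma adjusted p = 2.35e-04), and Khdc1c rose by 1.59 (SE 0.37, adjusted p = 0.00303). Khdc3, another protein of that complex, was at 15.35 in Padi6-mutant and 15.85 in Control embryos (-0.50, adjusted p = 0.0589). Thus 2 of 5 were higher and 0 lower, where 14.6% of all genes were higher and 12.0% lower. The counts were the same after length and GC detrending, while 1 of 5 was higher with detected genes per library as covariate, and 2 were higher and 1 lower under quantile normalization.

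Targets and partners were read from 3 further lists, beside the 14.6% of all genes called higher and the 12.0% called lower. Of the genes of the 2-cell stage that Dppa2 and Dppa4 can activate in mouse embryonic stem cells, 3 were measured and 0 were called (limma; Sp110 0.48, Tdpoz2 0.03, Tdpoz6 -0.77), while Dux and Zfp352 were not listed. Of the 6 genes of the PRAMEL7 route, the small ligase subunits Elob (2.71), Eloc (2.24) and Rbx1 (2.24) rose, and Uhrf1 (-0.81, adjusted p = 0.0291) and Dnmt1 (-0.70, adjusted p = 0.0101) fell, while the scaffold Cul2 was at -0.49 (adjusted p = 0.0545). The 3 rises held after length and GC detrending and with detected genes per library as covariate. The 2 falls did not hold with that covariate or without Padi6-mutant 6, 8, 9 and 10 (0 lower in each), and 1 held after detrending. Of 11 genes of LIF and STAT3 signalling, 1 was higher and 2 lower, near the shares of all genes, with a median of -0.09. Lif, the ligand, rose (1.02, adjusted p = 0.0280), and Tfcp2l1 and Il6st, the shared receptor chain, fell (-0.79 and -2.94). Il6st was low and uneven, at 6.63 ± 3.47 in Padi6-mutant and 9.57 ± 0.87 in Control embryos. Of the 11 genes, 0 were higher and 1 lower with that covariate or without those 4 libraries. Stat3 itself was at 12.50 in Padi6-mutant and 12.59 in Control embryos (-0.09, adjusted p = 0.844).

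Genes of like pattern were sought among 6911 named genes above the median level, by Pearson's r of values centred on the group means over the 19 embryos, which share library depth and the length trend. Dppa5a was most like Ndufb7, Ndufs6 and Ndufa12 (r = 0.97, 0.97 and 0.96), subunits of respiratory complex I with differences of 2.42 to 2.51. Dppa1 was most like the fatty acid binding protein gene Fabp3, Cystm1 and the tetraspanin gene Tspan8 (r = 0.94, 0.92 and 0.90). Dppa2 went with Crcp, Psmd12 and Spcs2 (0.89, 0.87 and 0.85), and Dppa4 with Rpl7l1, Nop16 and Mrto4 (0.89, 0.89 and 0.88), of which none was called. Pramel6 was most like another member of its family, Pramel4 (r = 0.84, rho = 0.83), then Tmem70 and Sucla2 (0.82 and 0.81). Pramel7 was most like Canx, Mier3 and Frs2 (0.81, 0.79 and 0.74). These are the top genes of a search and carry no p.

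Reads may be shared with copies of some members. Of the 75-base windows of the principal transcripts, 32.6% for Dppa2, 23.7% for Dppa4 and 19.45% for Dppa5a also occur in annotated transcripts of other genes, and 0 for Dppa1, Pramel6 and Pramel7. The 3 listed partners of Dppa5a were far below it and moved like it: Gm6083 (8.28 in Padi6-mutant and 6.25 in Control embryos), Gm6798 (8.09 in Padi6-mutant and 6.16 in Control embryos) and Pigp (10.57 in Padi6-mutant and 8.62 in Control embryos). Gm9788, the 1 listed partner of Dppa2, was at 7.54 in Padi6-mutant and 7.68 in Control embryos. How reads that match several genes were counted is not given in the sources used here.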

How the data were processed

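Single-blastocyst polyA RNA libraries of 9 Padi6-mutant and 10 Control embryos were compared. Per the labels' protocols, RNA and DNA were parted by the G&T method and bead-bound polyA RNA was copied with a template-switching oligo. Per the submitters' processing notes, the tools were Trim Galore 0.4.4 (trimming) and HISAT2 2.1.0 (alignment), with builds GRCm39 and mm39 named; the counting tool is not given in the sources used here. The deposited values are log2 of a scaled count plus 1, with 1 factor per library that equalises the upper quartile; every value is whole within 1.96e-07 when taken back. The labels give a mean depth of 4200000 reads; scaled totals are no depth, so no interval from counting was computed. The 2 most alike libraries had a Spearman's rho of 0.972 across genes.

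All 14173 genes were fitted with limma 3.58.1 (R 4.3.3; lmFit, eBayes with trend, two-sided) with Benjamini-Hochberg adjustment over all genes at a threshold of 0.05. Ratios, spreads and library measures were compared with exact two-sided permutation tests over the embryos, and correlations within groups with exact (9 embryos) or 100000-resample (10 embryos) permutations. GENCODE M21 gave a length and GC content, matched by symbol, for 94.2% of genes, using the shortest principal transcript; lowess trends (span 0.3) on length, then GC content, were removed from each library's deviations from the gene means. Alternatives were quantile and median-of-ratios scaling, pseudocounts of 16 and 0.5, a filter, other limma settings, covariates, left-out libraries and a replicate block. Code was tested on simulated data.

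Named were Padi6, all 6 members, up to 4 called genes of each list (or the 2 highest) and the 3 genes most like each member; other list genes were named after their values were seen. Members and lists were chosen with earlier results of these data known.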

Additional observations from a re-analysis of the deposited data

Results flagged for a closer look

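Among 42 sets of values (6 genes and 15 ratios, each in both groups), 3 held an embryo that stood apart from the rest of its group by Dixon's criterion, which marks about 1 set in 20 by chance. Pramel7 was at 14.71 in Padi6-mutant 10, where the gap to the next embryo was 0.50 of the group's range. The log2 ratio of Dppa5a over Pramel7 was 2.29 in the same embryo, with a gap of 0.55 of the range. The log2 ratio of Dppa1 over Pramel7 was 0.08 in Padi6-mutant 6, with a gap of 0.50 of the range. Padi6-mutant 10 had 551 genes at 0 and Padi6-mutant 6 had 596, the part of which in these values was not tested.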

How the results depend on the processing

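Dppa5a kept its rise under each alternative but 1 and Dppa1 under each but 2. With the library's length rho as a covariate, chosen after the data were seen, Dppa5a was at 0.55 (adjusted p = 0.402) and Dppa1 at 1.41 (0.281), so 0 members were called higher; Dppa4 was at -1.18 (0.0432), the 1 called lower. Length and GC detrending put Dppa1 at 0.46, leaving 1 called higher, and Dppa2 at -0.47 and Dppa4 at -0.50, with 2 called lower. Detrending with the longest transcripts, also chosen after the data were seen, gave 2 lower, Dppa2 at -0.49 and Dppa4 at -0.67. Under quantile normalization Dppa2 fell by 0.66 (adjusted p = 0.00498), the 1 called lower. Pramel6 passed with library quality weights (0.35, adjusted p = 0.0489) and in the exact permutation test, unadjusted (0.30, p = 0.0322). Pramel7 was at -0.02 under quantile normalization, -0.22 with detected genes per library as covariate, -0.10 without Padi6-mutant 6, 8, 9 and 10, and -0.12 with the longest transcripts. Of 15 ratios, 6 passed after length and GC detrending. The length rho differed between the groups, so the fit with it as a covariate can hardly tell it from the group. The SE of Dppa1 was 0.64 in that fit, against 0.37 without the covariate. The causes were not tested.

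With each library left out in turn, the difference of Dppa1 ranged from 1.86 to 2.23, of Dppa2 from -0.44 to -0.28, of Dppa4 from -0.40 to -0.19, of Dppa5a from 1.96 to 2.26, of Pramel6 from 0.25 to 0.36 and of Pramel7 from 0.02 to 0.20, with 2 members called higher and 0 lower each time, and 10 of 15 ratios passing. Same-numbered embryos did not deviate together (1 of 9 correlations above 0.1, range -0.07 to 0.15). The labels do not say whether the numbers pair embryos, and low correlations cannot exclude a shared day or batch. With the replicate block Dppa5a was at 1.96 and Dppa1 at 1.88, and no member's call changed. Of all genes, 2068 were higher and 1697 lower, against 1541 and 987 with the block, 2660 and 2689 with quality weights, 1308 and 499 with detected genes as covariate, 1681 and 941 without the 4 libraries, 1242 and 1332 among genes above the median level, and 87 and 52 with the length rho.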
